A study of Mus musculus with 2 samples.

Results

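The genes described here encode proteins that write, read or erase the chemical marks of chromatin, together with the core proteins of heterochromatin. They were chosen by gene symbol alone, from families such as Cbx, Dnmt, Suv, Setd, Kdm, Kmt, Hdac, Kat, Brd and Phf, with Trim28, Atrx, Daxx and Scmh1 added by name. Of the 3134 genes in the table, 76 met this rule. No measured value entered it. RNA crosslinked to HP1 alpha was recovered by eCLIP from NIH3T3, an established mouse fibroblast line. In eCLIP, ultraviolet light joins a protein to the RNA it touches, the RNA is trimmed with RNase, and RNA is isolated from a gel region above the band of the protein. The HP1 alpha group is 1 library precipitated with an anti-HP1 alpha antibody, and the input group is 1 library labelled as having no antibody. The labels give both the same line, medium and protocol text, and name no treatment or genetic change for either.

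Heterochromatin is the compact, mostly silent part of the genome. HP1 proteins bind to histone H3 methylated at lysine 9, a mark that the SUV39H, SETDB and EHMT enzymes write and demethylases of the KDM4 family remove. Polycomb repressive complex 2 writes another silencing mark, on lysine 27 of the same histone, while KMT2 enzymes and acetyltransferases write marks of active genes that KDM5 enzymes and histone deacetylases take off. The question for these genes is whether the RNAs that encode this machinery are themselves over-represented among the RNAs recovered with HP1 alpha.

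Each value is the ratio of a gene's share of the listed counts in the HP1 alpha library to its share in the input. The listed counts add up to 513965 for HP1 alpha and 830031 for the input, and shares are also given as CPM, the count scaled to the listed total. A ratio carries an exact 95% counting interval, which covers counting error only. With 1 library in each group, no difference has a replicate check, and no test between the conditions exists. Calls needed a ratio past 2-fold, up or down, and an interval that left out 1. Genes were listed only where 1 of both counts reached 100. A gene with fewer than 61.9 HP1 alpha counts could therefore be listed only with a ratio below 1. This holds for 9 of the 76: Suv39h1, Hdac6, Brd7, Daxx, Phf6, Cbx1, Phf11d, Phf10 and Sirt2. Of 9 fibroblast markers, 7 were listed, among them Col1a1 and Fn1, and 0 of the 4 immune, 4 epithelial and 3 endothelial markers were.

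By their median, these RNAs sat where the whole table sat. Their median log2 ratio was -0.21, and that of all 3134 listed genes was also -0.21. Of the 76, 1 was called higher, Hdac4, against 2.36% of all listed genes, and 0 were called lower, against 0.83%. At 1.5-fold, 2 were higher (7.63% of all genes) and 7 were lower (12.3% of all genes). The interval lay wholly above 1 for 8 members, or 10.5% of them, against 15.4% of all listed genes. It lay wholly below 1 for 27, or 35.5%, against 32.6% of all, and it held 1 for 41. The ratio was above 1 for 21 of the 76, or 27.6%, against 30.9% of all. Together the 76 genes held 12857 HP1 alpha counts and 22174 input counts. This is 2.50% and 2.67% of the listed totals, a summed ratio of 0.936 (0.916 to 0.957). For the listed genes that are not members it was 1.00 (0.998 to 1.01). The sum weighs genes by their counts, so it need not follow the median.

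How the libraries are scaled sets how many members fall on each side. TMM scaling raised every log2 ratio by 0.20 and DESeq2 size factors by 0.21. Intervals were then above 1 for 17 and below 1 for 7 members with TMM, against 23.3% and 13.7% of all listed genes, and for 17 and 6 with DESeq2 factors, against 23.9% and 12.4%. The 8 members above 1 were among the 17 in both cases, which add Kmt2a, Ncoa2, Kdm6b, Dnmt3a, Brd1, Phf14, Phf20, Phf3 and Dot1l. Of the 27 below 1, those left with DESeq2 factors were Ehmt2, Sirt2, Suz12, Ncor1, Phf10 and Phf11d, and TMM kept Cbx1 as well. Under both scalings, Sirt2, Phf10, Phf11d and Cbx1 could still be listed only with a ratio below 1. Cbx5 lies on either side of 1 depending on the scaling. Hdac4 was called higher under both. The median log2 ratio of 7 of the 15 role groups was below 0 as reported and above 0 under both: acetyltransferases, DNA methylation, H3K4 methyltransferases, deacetylases, demethylases, PHD finger genes and H4K20 methyltransferases. In the other groups it stayed below 0 under both. The DNA methylation median is the value of Uhrf1bp1, whose product is not an enzyme of DNA methylation. On either side of it, Tet3 and Dnmt3a had ratios above 1 and Uhrf1 and Uhrf2 below 1.

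**Figure D1:**
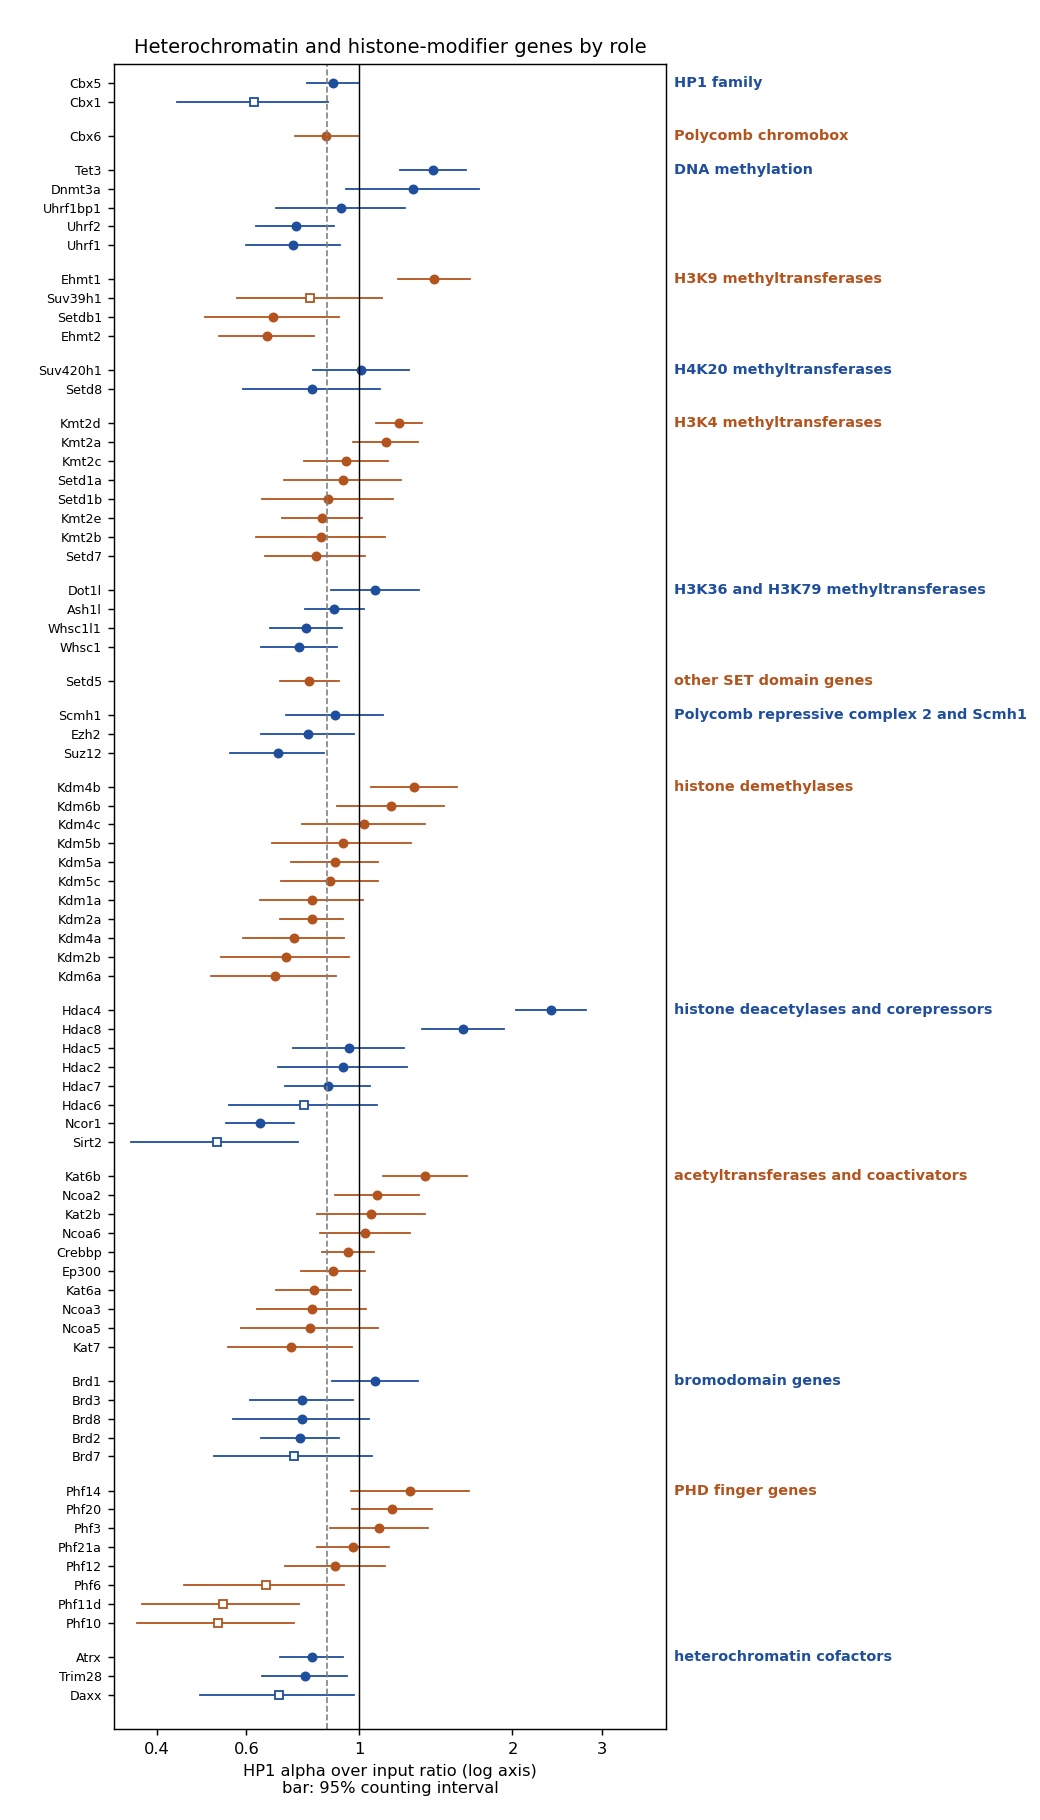
HP1 alpha over input ratio (horizontal log axis) of 75 of the 76 genes, grouped by role, with 95% counting intervals as bars and 1 library per group. The solid line marks a ratio of 1 and the dashed line the median of all 3134 listed genes, 0.865. Open squares are the 9 genes that could be listed only with a ratio below 1. Hdac4 and Hdac8 stand farthest to the right, and Sirt2, Phf10 and Phf11d farthest to the left.

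Neither of the HP1 genes had an interval above 1, which 15.4% of all listed genes had. Cbx5, which encodes HP1 alpha, had 429 HP1 alpha counts and 780 input counts, or 835 and 940 CPM. Its ratio of 0.888 lay just above the median of all genes, and its interval reached 1 (0.788 to 1.00). It spans chromosome 15 from 103191546 to 103239904 in GRCm38.p6. Cbx1, which encodes HP1 beta, had 50 and 130 counts, for a ratio of 0.621 (0.439 to 0.867). With 50 HP1 alpha counts, the highest ratio the listing allowed it was 0.807. Cbx3, the gene of HP1 gamma, was not analysed here. Cbx6, a Polycomb chromobox gene, had 301 and 564 counts, for a ratio of 0.862 (0.747 to 0.993). All of its span lies within another listed gene, Npcd, whose 339 and 635 counts gave the same ratio of 0.862, so reads of these genes may be shared.

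With the listed totals, the 3 cofactor genes of heterochromatin had intervals below 1, as did 32.6% of all listed genes. Under TMM or DESeq2 factors, 0 of the 3 did. Trim28, the corepressor that brings H3 lysine 9 methylation to silenced repeats, had 162 HP1 alpha counts and 335 input counts. Atrx, a remodeller that deposits histone H3.3 at heterochromatin, had 302 and 605. Daxx, the chaperone that works with it, had 49 and 114. Their ratios were 0.781, 0.806 and 0.694 (0.486 to 0.978). Their summed ratio was 0.786 (0.706 to 0.874). With 49 HP1 alpha counts, Daxx could be listed with no ratio above 0.791.

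Among the enzymes that methylate H3 lysine 9, Ehmt1 stood apart from the others. Ehmt1, the gene of GLP, had 284 HP1 alpha counts and 327 input counts, and a ratio of 1.40 (1.19 to 1.65). Ehmt2, the gene of its partner G9a, had 122 and 299 counts, for a ratio of 0.659 (0.529 to 0.816). Both proteins form 1 complex, but their RNAs lay on opposite sides of 1 with intervals that did not overlap. Setdb1, the enzyme that acts with Trim28, had 64 and 153 counts and 0.676 (0.496 to 0.910). Suv39h1, the enzyme of pericentromeric heterochromatin, had 58 and 117 counts and 0.801 (0.574 to 1.11). Of the 4 genes, 1 had an interval above 1 and 2 had one below, against 15.4% and 32.6% of all listed genes. For H4 lysine 20, whose methylation follows HP1 in pericentromeric heterochromatin, Suv420h1 (now Kmt5b) had 1.01 (0.811 to 1.25) and Setd8 (now Kmt5a) had 0.807 (0.590 to 1.10).

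The genes of DNA methylation split as well. Tet3, a dioxygenase that oxidises methylated cytosine, had 332 HP1 alpha counts and 384 input counts, or 646 and 463 CPM. Its ratio was 1.40 (1.20 to 1.62). The de novo methyltransferase gene Dnmt3a had 82 and 104 counts and 1.27 (0.941 to 1.72). Uhrf1, which leads the maintenance methyltransferase to newly copied DNA and reads H3 lysine 9 methylation, had 131 and 285 counts and 0.742 (0.599 to 0.916). Its relative Uhrf2 had 187 and 403 counts and nearly the same ratio, 0.749 (0.627 to 0.893). Uhrf1bp1, which the symbol rule takes in although its product is not an enzyme of DNA methylation, had 0.921 (0.687 to 1.23). Of these 5 genes, 1 had an interval above 1 and 2 below it, against 15.4% and 32.6% of all listed genes.

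MicroRNAs lie within the spans of 4 members, according to RefSeq on GRCm38.p6. Whether reads from them entered the counts is not known, because the strand setting and the features counted are not given. Any that did cannot be separated from those of the surrounding gene. The microRNAs are shown because Tet3 is among the members with an interval above 1 and Brd3 among those below it. Each mature sequence is written 5′ to 3′ with its seed, bases 2 to 8, in capitals. The 4 seeds all differ.
mmu-miR-6374, within Tet3: aAGUUAUAagcuaguuggugcu
mmu-miR-7578, within Brd3: cAUGGCUCugucuucugccucaga
mmu-miR-8101, within Hdac5: gGCGAGCGgagccggaggagcc
mmu-miR-1955-5p, within Phf21a: aGUCCCAGgaugcacugcagcuuuu
The ratio of Tet3 was 1.40, that of Brd3 0.773 (0.611 to 0.973), that of Hdac5 0.954 and that of Phf21a 0.973, the latter pair with intervals that held 1. The microRNA in Tet3 lies on chromosome 6 from 83401060 to 83401081.

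Ezh2 and Suz12, which encode parts of Polycomb repressive complex 2, had intervals below 1 with the listed totals. So did 32.6% of all listed genes. With TMM or DESeq2 factors Suz12 still did and Ezh2 did not, against 13.7% and 12.4% of all listed genes. Ezh2, the catalytic subunit, had 138 HP1 alpha counts and 281 input counts, with a ratio of 0.793 (0.642 to 0.976). Suz12, a core subunit, had 128 and 299 counts and 0.691 (0.558 to 0.853). Scmh1, which associates with Polycomb repressive complex 1, had 132 and 238 and a ratio of 0.896 (0.719 to 1.11). The summed ratio of these 3 genes was 0.786 (0.695 to 0.887).

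The genes grouped here as H3 lysine 4 methyltransferases had the narrowest range of ratios among the groups of at least 8 genes. The enzyme activity of their products was not assessed. Kmt2d had the most counts of all 76 genes, 640 for HP1 alpha and 863 for the input, with a ratio of 1.20 (1.08 to 1.33). Kmt2a, the mouse homologue of MLL, had 312 and 447 counts and 1.13 (0.972 to 1.31). Kmt2c, the closest relative of Kmt2d, had 178 and 305 and a ratio of 0.942 (0.779 to 1.14). The other 5, Kmt2b, Kmt2e, Setd1a, Setd1b and Setd7, had ratios from 0.821 to 0.929, all with intervals that held 1. Setd1a, with 92 and 160 counts, and Setd1b, with 72 and 134, had 0.929 and 0.868. Of the 8 genes, 1 had an interval above 1 and 0 had one below, against 15.4% and 32.6% of all listed genes. Their summed ratio was 1.02 (0.962 to 1.09).

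Among writers of H3 lysine 36 and lysine 79 methylation, the NSD genes had intervals below 1 with the listed totals. So did 32.6% of all listed genes. Of the 4 writers, 0 did with TMM or DESeq2 factors. Whsc1 (now Nsd2) had 201 HP1 alpha counts and 426 input counts, a ratio of 0.762 (0.641 to 0.903). Whsc1l1 (now Nsd3) had 221 and 454 and a ratio of 0.786 (0.666 to 0.925). Ash1l had 345 and 624 counts and 0.893 (0.781 to 1.02). Dot1l, the lysine 79 methyltransferase, was on the other side with 167 and 251 counts, but its interval held 1 (1.07, 0.878 to 1.31). Setd5, a further SET domain gene, had 331 and 670 counts and 0.798 (0.697 to 0.911).

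Of the 11 histone demethylase genes, 1 had an interval above 1 and 4 below it, against 15.4% and 32.6% of all listed genes. With TMM or DESeq2 factors 0 of the 11 had an interval below 1, against 13.7% and 12.4% of all listed genes. Kdm4b, which acts on lysine 9, had 189 HP1 alpha counts and 238 input counts, a ratio of 1.28 (1.05 to 1.56). Its relatives Kdm4c, with 86 and 136 counts, and Kdm4a, with 114 and 247, had 1.02 (0.770 to 1.35) and 0.745 (0.592 to 0.934). The pair that removes lysine 27 methylation was also spread. Kdm6b had 120 and 168 counts and 1.15 (0.905 to 1.47), and Kdm6a had 73 and 173 and 0.681 (0.511 to 0.901). The lysine 4 demethylases Kdm5a, Kdm5b and Kdm5c were alike in value, at 0.895, 0.927 and 0.874, each with an interval that held 1. Kdm1a, the LSD1 gene, had 0.807 (0.638 to 1.02). Kdm2a and Kdm2b, which act on lysine 36, had 302 and 605 and 71 and 160 counts and intervals below 1, at 0.806 (0.700 to 0.927) and 0.717 (0.534 to 0.953).

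The histone deacetylase and corepressor genes held the widest range of any group. Hdac4, a class IIa deacetylase that moves between nucleus and cytoplasm, had 386 HP1 alpha counts and 262 input counts, or 751 and 316 CPM. No other member had more HP1 alpha counts than input counts. Its ratio of 2.38 (2.03 to 2.79) was above 99.1% of all listed genes, and the authors' deposited table gives 2.45. Hdac4 spans chromosome 1 from 91928779 to 92195702, which makes it the longest member at 267 kb. No other listed gene overlaps it. Hdac8, an X-linked class I enzyme known for deacetylating cohesin, had 232 and 234 counts and 1.60 (1.33 to 1.93). The other class IIa genes had ratios below 1. Hdac5 had 104 and 176 counts and 0.954 (0.742 to 1.22), and Hdac7 had 168 and 313 and 0.867 (0.714 to 1.05).

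Ncor1, a corepressor gene whose protein holds the deacetylase HDAC3, had 240 HP1 alpha counts and 607 input counts, with a ratio of 0.639 (0.548 to 0.743). Ncor1 and Ehmt2 were the only members past 1.5-fold lower whose side of 1 the listing did not fix. Sirt2, an NAD-dependent deacetylase found mainly in the cytoplasm, had the lowest ratio of all, 0.525 (0.356 to 0.759), from 39 and 120 counts. The listing allowed it no ratio above 0.630, so its place past 1.5-fold was set by the listing. Hdac2 and Hdac6 had 0.930 (0.692 to 1.24) and 0.779 (0.554 to 1.08). The 9 genes had 3 intervals above 1 and 2 below, against 15.4% and 32.6% of all listed genes. Their summed ratio was 1.13 (1.06 to 1.20), but their median ratio was 0.930, and 6 of the 9 had a ratio below 1. Hdac4 gave 386 of the 1853 HP1 alpha counts and 262 of the 2658 input counts of the group. The interval of a summed ratio covers counting error only, not the spread between genes.

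The acetyltransferase and coactivator genes had a median log2 ratio of -0.12, against -0.21 for the whole table. Crebbp and Ep300, the paired acetyltransferases of enhancers, had 450 and 298 counts in HP1 alpha and 764 and 541 in the input. Their ratios were 0.951 (0.845 to 1.07) and 0.890 (0.770 to 1.03). Kat6b had 202 and 242 counts and 1.35 (1.11 to 1.63), whereas its paralog Kat6a had 208 and 413 and 0.813 (0.685 to 0.963). Kat7, the HBO1 acetyltransferase, had 76 and 167 counts and 0.735 (0.553 to 0.970). The ratios of Kat2b and of the nuclear receptor coactivators Ncoa2, Ncoa3, Ncoa5 and Ncoa6 ran from 0.801 to 1.08, and each interval held 1. Of the 10 genes, 1 was above and 2 were below 1 by interval, against 15.4% and 32.6% of all listed genes.

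With the listed totals, readers of acetylated histones and PHD finger genes gave 0 intervals above 1, against 15.4% of all listed genes. Those of Brd1, Phf14, Phf20 and Phf3 were above 1 with TMM and with DESeq2 factors, against 23.3% and 23.9% of all listed genes. Brd2 and Brd3, of the BET family that binds acetylated histone tails, had 193 and 111 counts in HP1 alpha and 407 and 232 in the input. Brd2 had a ratio of 0.766 (0.642 to 0.911) and Brd3 one of 0.773. Brd1, a scaffold of acetyltransferase complexes, had 1.07 (0.885 to 1.30), and Brd7 and Brd8 had 0.745 (0.518 to 1.06) and 0.772 (0.565 to 1.04). Of the 8 PHD finger genes, Phf14 had the highest ratio, 1.26 (0.964 to 1.64), from 103 and 132 counts. Phf20, Phf3, Phf21a and Phf12 followed with 1.16, 1.10, 0.973 and 0.897, all with intervals that held 1. The 3 low ones were Phf10, a subunit of a SWI/SNF remodeller, with 44 and 135 counts and 0.526 (0.366 to 0.745), Phf11d with 44 and 132 and 0.538 (0.374 to 0.762), and Phf6 with 45 and 111 and 0.655 (0.452 to 0.934). All 3 could be listed only with a ratio below 1.

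**Figure D2:**
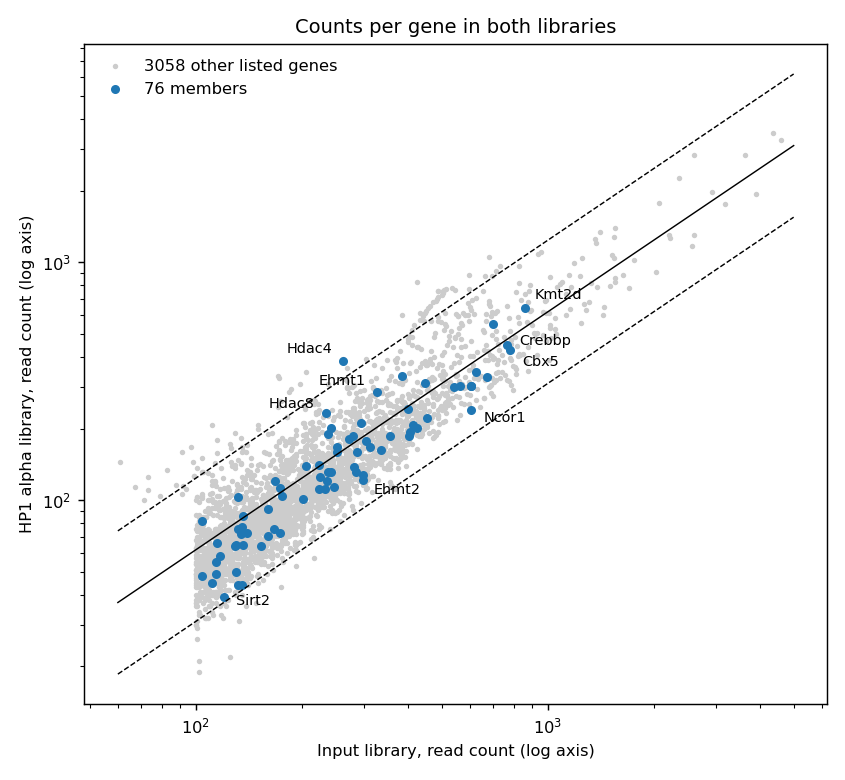
Read count in the input (horizontal log axis) against read count in the HP1 alpha library (vertical log axis) for the 76 genes (blue) and the other 3058 listed genes (grey), 1 library each. The solid line is a ratio of 1 after scaling to the listed totals and the dashed lines are 2-fold on either side. Hdac4, with 386 and 262 counts, is the 1 blue point above the upper dashed line, and the empty lower left corner is the listing limit of 100 counts.

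Related genes were then compared directly. The ratio of 1 gene was divided by that of its relative, with the conditional 95% interval of the odds ratio. This interval needs no scaling between the libraries. In 1 pair, Suz12 and Ezh2, the genes encode different subunits of 1 complex and are not relatives. Of 11 pairs, 5 had an interval that excluded 1 and 6 had one that held it. How often arbitrary pairs of listed genes differ by this rule was not computed. These counts therefore do not show that relatives differ more, or less, than other genes. Hdac4 exceeded Hdac5 by 2.49-fold (1.85 to 3.37) and Ehmt1 exceeded Ehmt2 by 2.13-fold (1.62 to 2.80). The quotient was 0.603 (0.466 to 0.781) for Kat6a over Kat6b and 0.787 (0.633 to 0.977) for Kmt2c over Kmt2d. Cbx5 over Cbx1 was just outside, at 1.43 (1.00 to 2.07), and Cbx1 was low by listing. The quotient was 0.935 (0.775 to 1.13) for Ep300 over Crebbp, 0.872 (0.645 to 1.18) for Suz12 over Ezh2, 1.12 (0.816 to 1.56) for Kdm2a over Kdm2b and 1.07 (0.716 to 1.60) for Setd1a over Setd1b. It was 0.941 (0.785 to 1.13) for Kmt2a over Kmt2d and 0.730 (0.507 to 1.05) for Kdm4a over Kdm4c. An interval that holds 1 does not show that 2 RNAs behave alike, and that of Kdm4a over Kdm4c reaches down to 0.507.

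**Figure D3:**
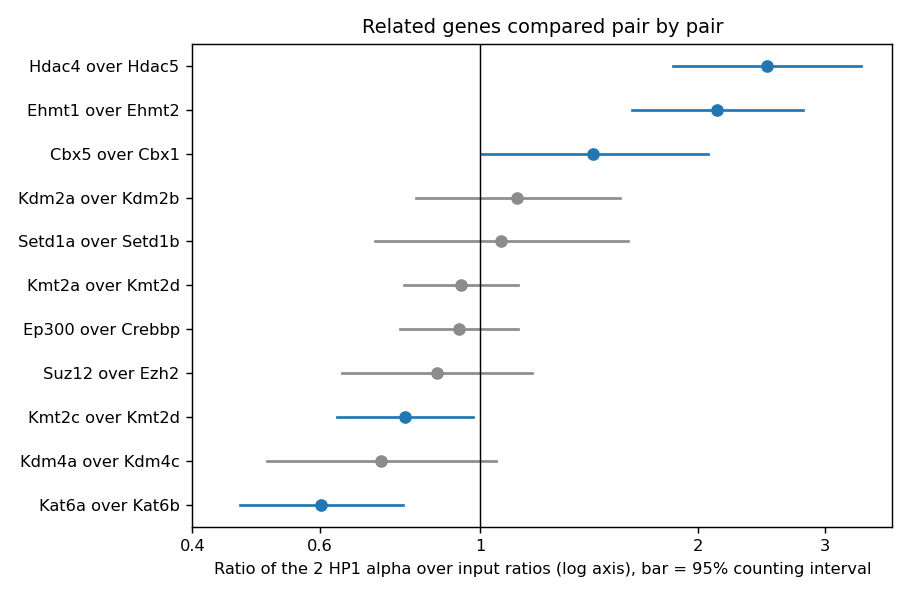
Quotient of the HP1 alpha over input ratios of 2 genes (horizontal log axis) for 11 pairs, with conditional 95% counting intervals as bars and 1 library per group. The genes of a pair are relatives, except that Suz12 and Ezh2 encode different subunits of 1 complex. Blue marks the 5 pairs whose interval excludes 1 and grey the 6 whose interval holds 1. Hdac4 over Hdac5 lies at 2.49 and Kat6a over Kat6b at 0.603.

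In 9 families that share a symbol stem, 22 pairs could be formed, a set taken after the values were seen and with genes used more than once. The interval excluded 1 in 8 of these pairs, a count that also has no share over other gene pairs beside it. Beyond those named above, Kdm4b exceeded Kdm4a by 1.72-fold (1.27 to 2.33) and Kdm6b exceeded Kdm6a by 1.69-fold (1.16 to 2.47). In the KMT2 family, 4 of 10 pairs did so, 3 of them with Kmt2d as the higher gene. None of the 3 pairs of the KDM5 family did, nor did Uhrf2 and Uhrf1, whose quotient was 1.01 (0.764 to 1.34).

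Across all listed genes the ratio is larger in longer genes, and the members followed. Over the 76 genes, Spearman's rho between ratio and gene span (first to last base in RefSeq, introns included) was 0.52, and Pearson's r of the log2 ratio with log10 span was 0.54. Over all 3089 listed genes with a known span, rho was 0.61. These are correlations across genes of the same 2 libraries, which are not independent replicates. The median ratio was 0.801 for the 35 members with spans no longer than 50 kb and 0.856 for the 20 members between 50 and 100 kb. The 17 between 100 and 200 kb had 0.973, and the 4 above 200 kb (Hdac4, Ncoa2, Kmt2c and Hdac8) had 1.34. All listed genes in the same bins had 0.783, 0.890, 1.07 and 1.40. Longer members also had more counts: rho between span and summed count was 0.48.

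Span differed within most of the pairs that came apart. Ehmt1 spans 129 kb and Ehmt2 15.6 kb. Hdac4 spans 267 kb and Hdac5 34.4 kb, and Kat6b spans 173 kb and Kat6a 83.8 kb. In 4 of the 5 pairs whose interval excluded 1 the longer gene had the higher ratio, as it did in 7 of all 11 pairs. Among the family pairs this held for 5 of the 8 whose interval excluded 1 and for 13 of all 22. In the KDM6 and KMT2 families the shorter gene could be the higher one: Kdm6b spans 21.9 kb against 119 kb for Kdm6a, and Kmt2d 42.4 kb against 227 kb for Kmt2c. The part of span in these differences was not tested beyond these values.

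Each member was also set against the median of the 200 listed genes nearest to it in span. On that scale the interval was above the median for 11 of the 76, or 14.5%, against 15.4% of all listed genes with a span, and below it for 14, or 18.4%, against 11.8%. None reached 2-fold, against 1.23% of all listed genes on the high side and 0.129% on the low side. Hdac4 was 1.75 times the median of genes of like span (1.5 to 2.06), followed by Tet3 with 1.46 (1.26 to 1.69), Kdm6b with 1.45 (1.14 to 1.85), Kmt2d with 1.44 (1.30 to 1.60) and Kdm4b with 1.42 (1.17 to 1.72). Ehmt1 had 1.34 (1.14 to 1.57), and Dot1l, Brd1, Kmt2a, Hdac8 and Cbx6 completed the 11. Cbx6, at 1.20 (1.04 to 1.38), was the 1 member to turn from an interval below 1 to one above the median of like span. Its span lies within Npcd and its reads may be shared, so its place among the 11 is uncertain. Kat6b, which had an interval above 1, no longer stood out, at a log2 value of 0.13 from genes of like span.

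Of the 14 genes below the median of like span, 10 also had intervals below 1. Ncor1 was lowest, at 0.584 of genes of like span (0.501 to 0.679), then Sirt2 with 0.658 (0.447 to 0.952) and Kdm6a with 0.670 (0.503 to 0.886). Phf10, Phf11d and Kdm2b followed with 0.684, 0.688 and 0.703. With their HP1 alpha counts, the listing allowed Sirt2 no ratio above 0.630 and Phf10 and Phf11d none above 0.711. These limits lie below the median of genes of their span, so the side of these genes was set by the listing. Long genes with ratios near 1 now lay below their peers: Kmt2c had 0.720 (0.595 to 0.869), Phf21a 0.777 (0.659 to 0.914) and Ncoa2 0.820 (0.678 to 0.991). Atrx, at 0.766 (0.665 to 0.881), Whsc1l1, at 0.773 (0.655 to 0.910), and Whsc1, at 0.840 (0.706 to 0.995), stayed low. Ash1l, at 0.848 (0.742 to 0.969), and Setd5, at 0.874 (0.764 to 0.998), completed the 14. Trim28, Suz12, Ezh2, Ehmt2, Cbx1 and Uhrf1, by contrast, had intervals that held the median of genes of their length. Cbx5 was within its span group, 0.08 above the median on the log2 scale.

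**Figure D4:**
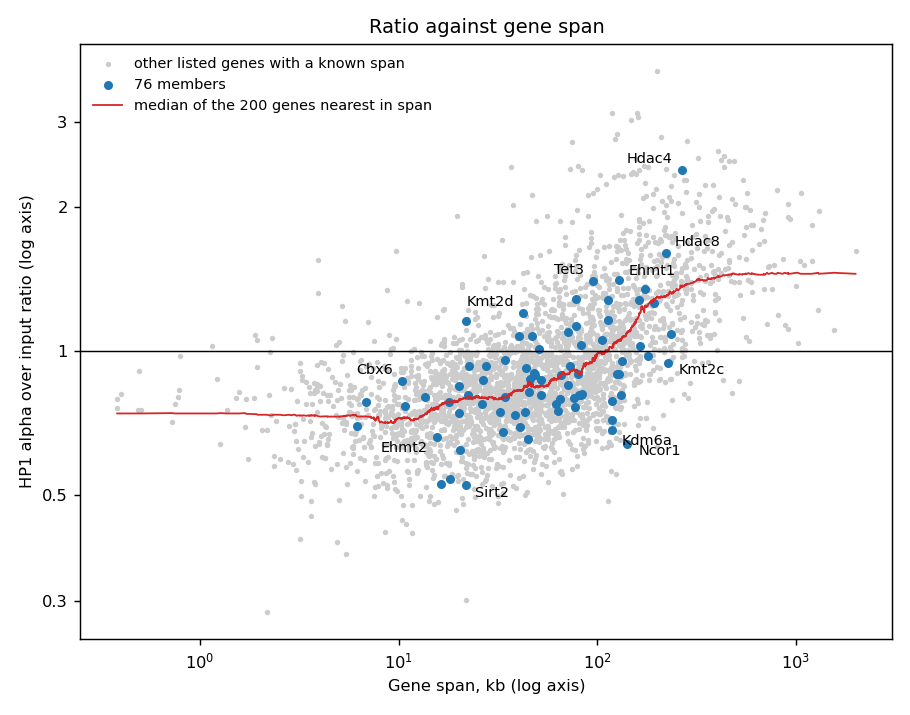
HP1 alpha over input ratio (vertical log axis) against gene span in kb (horizontal log axis) for the 76 genes (blue) and the other listed genes with a known span (grey). The red line is the median of the 200 genes nearest in span. Hdac4, Tet3 and Kmt2d lie above the red line and Ncor1, Kdm6a and Kmt2c below it.

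Read density differed far more than the ratio did. Per kb of span, input counts ran from 0.686 for Phf14 to 54.0 for Cbx6, whose span lies within Npcd, and 48.7 for Trim28. Brd2 had 37.7, Kmt2d 20.3, Ehmt2 19.2 and Cbx5 16.1 input counts per kb. Hdac4 and Hdac8, the members with the highest ratios, were among the thinnest, with 0.982 and 1.06 input counts per kb and 1.45 and 1.05 in HP1 alpha. These densities count introns in the length, and whether introns were counted is not given.

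Partner genes of the same complexes, which the symbol rule leaves out, were taken from a separate list of 102 genes such as further subunits of the Polycomb, NuRD, SIN3, COMPASS and acetyltransferase complexes. Of these, 54 were listed, with a median log2 ratio of -0.14. The interval was above 1 for 6 and below 1 for 12 of the 54, against 15.4% and 32.6% of all listed genes. The 3 highest were Smyd3, a SET and MYND domain methyltransferase gene of 566 kb, with 877 and 664 counts and 2.13 (1.93 to 2.36), Tbl1xr1, a corepressor subunit, with 1.79 (1.55 to 2.08), and Ctbp2, a corepressor, with 1.70 (1.41 to 2.05). The 3 lowest were Ogt, the O-GlcNAc transferase gene, with 114 and 364 counts and 0.506 (0.406 to 0.626), Men1, the menin gene that acts with KMT2 enzymes, with 0.608 (0.442 to 0.828), and Rbbp4, a histone chaperone shared by several of these complexes, with 0.658 (0.545 to 0.793). Men1, with 58 HP1 alpha counts, could be listed only with a ratio below 1.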

How the data were processed

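RNA from 1 HP1 alpha eCLIP library and 1 input library of NIH3T3 cells was compared. The authors deposited 1 table of read counts per gene, whole numbers listed where either count reaches 100, and a fold ratio, equal throughout to the ratio of counts multiplied by 1.66. STAR 2.6.0c and featureCounts were used with GRCm38, per the submitters' processing notes. The strand setting, the features counted and duplicate removal were not given in the sources used here. The columns are headed MEF_HP1 and MEF_mock: the first was taken as the HP1 alpha library and the second as the library without antibody. No further column of sample values was present (0).

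Counts were divided by each library's listed total, the ratio given an exact Clopper-Pearson interval of 95%, and log2 ratios formed with a pseudocount of 0.5. Tools were scipy 1.17.1, edgeR 4.0.16 and DESeq2 1.42.0, both R packages for scaling factors alone. The calculation was tested on simulated data. Spans came from RefSeq on GRCm38.p6: all 76 members matched, 72 by symbol and 4 by synonym. Reads may include PCR copies. Members' intervals had upper bounds 1.23 to 2.13 times their lower bounds. Members, role groups, pairs and lists were chosen with earlier results of these data known. Named with values were the HP1 genes, members past 1.5-fold, the 8 highest and 8 lowest, the most abundant of each role, both genes of each pair and the partner genes at either end. Further members were added after their values were seen. The values of 1 member are not reported here, although it enters the counts over all members.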

Additional observations from a re-analysis of the deposited data

How the results depend on the processing

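No paired analysis was possible because neither group has a replicate, and no library could be left out. For the members, the number called higher, 1 as reported, was 0 against genes of similar span and 2 at 1.5-fold. The number called lower, 0 as reported, was 7 at 1.5-fold. The number of intervals above 1, 8 as reported, became 17 with TMM and 17 with DESeq2 factors. The number below 1, 27 as reported, became 7 with TMM, 6 with DESeq2 factors, 15 with 400 counts as the minimum (38 members left) and 14 against genes of similar span. The 15 are out of 38 members and the 27 out of 76, and no share over all listed genes was computed at 400 counts. The members' median log2 ratio of -0.21 became -0.011 with TMM, 0.000508 with DESeq2 factors, -0.17 with the authors' constant, -0.17 at 400 counts and -0.015 against genes of similar span. For the 54 partner genes, intervals above 1 went from 6 to 11 with TMM and 11 with DESeq2 factors. Those below 1 went from 12 to 4, 4, 4 at 400 counts (21 partner genes left) and 2 against genes of similar span. Their median of -0.14 became 0.0533, 0.0652, -0.10 with the authors' constant, -0.013 at 400 counts and 0.029 against genes of similar span.

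Role group medians that changed sign were, with TMM and then DESeq2 factors, 0.0778 and 0.0897 for acetyltransferases, 0.0828 and 0.0948 for DNA methylation, 0.0456 and 0.0575 for H3K4 methyltransferases, 0.0964 and 0.11 for deacetylases, 0.00594 and 0.0179 for demethylases, 0.10 and 0.11 for PHD finger genes and 0.0536 and 0.0655 for H4K20 methyltransferases. Against genes of similar span these medians were 0.13 for DNA methylation, 0.11 for H3K4 methyltransferases, 0.11 for deacetylases, 0.14 for H4K20 methyltransferases and 0.26 for Cbx6. The DNA methylation values given here are all those of Uhrf1bp1, and the span of Cbx6 lies within Npcd. At 400 counts they were 0.0449 for H3K4 methyltransferases, 0.35 for deacetylases and 0.0878 for PHD finger genes. TMM and DESeq2 factors add a constant to every log2 ratio, which by construction moves the counts this way. Single members moved outside their counting interval in 6 cases with TMM, 10 with DESeq2 factors and 14 against genes of similar span, and in 0 with the authors' constant or without the 10 most abundant genes. Spearman's correlation with span, 0.52 as reported, was 0.50 among the 38 members with at least 400 counts and 0.53 among the 71 that overlap no other listed gene. Members near 100 counts have the widest intervals, so differences of 1.5-fold there are the least certain.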

Other observations

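Of the 76 members, 7 lie on the X chromosome: Hdac8, Kdm5c, Atrx, Suv39h1, Hdac6, Kdm6a and Phf6. Their median log2 ratio was -0.31, against -0.25 for all 103 X-linked listed genes, with Hdac8 the one with a ratio above 1. The side of 1 was fixed by the listing for 3 of them. Atrx and Kdm2a, on different chromosomes, had identical counts of 302 and 605. Apart from Cbx6, 4 members overlap a listed gene by a short stretch: Kdm1a shares 4.19 kb with Luzp1, whose ratio was 1.04, and the shared length was 0.8 kb or less for Ash1l with Dap3, Setdb1 with Cers2 and Hdac7 with Slc48a1. These points were noticed after the values were seen.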
